A study of Mus musculus with 4 samples.

Results

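The genes described here are those whose array signal in fibroblasts without PTIP was at most 0.5 times the signal with PTIP, on both pairs of arrays that carry the same replicate number. Each gene was represented by its brightest probe set with a single gene symbol, and signals below 48, a level taken as the lowest that can be read, were raised to 48 first. Of 18193 genes, 90 met this rule. Paxip1 itself and 17 genes of other named groups were then set aside, which left 72 genes. The genes were thus chosen by the PTIP -/- over PTIP +/+ signal ratio on these same 4 arrays, so their differences between the genotypes are given as a description and carry no test.

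The cells were immortalized mouse embryonic fibroblasts (MEF) in which both alleles of the PTIP gene carried loxP sites (PTIP flox/flox). The PTIP -/- group had been infected with a retrovirus for Cre recombinase, which cuts out the flanked stretch, and the PTIP +/+ group with the vector alone, so the PTIP +/+ cells also carried the flox alleles. Both groups went through puromycin selection in medium with serum, and each gave total RNA for 2 Affymetrix arrays, replicates 1 and 2. No label gives an age, strain or number of separate infections, or says what the replicate number stands for, so it is not known whether the numbers mark separate cultures.

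PTIP is a nuclear protein of the MLL3/MLL4 complexes, which place methyl marks on lysine 4 of histone H3, mostly at enhancers and also at promoters, and it has a separate part in the response to DNA breaks. Loss of these complexes is known to lower genes that a cell type switches on through enhancers. Fibroblasts are connective tissue cells known for making matrix, growth factors and the enzymes that remodel the space between cells.

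The labels held for the targeted gene: the brightest Paxip1 probe set read 43.5 and 74.6 in PTIP -/- against 1029.5 and 1040.1 in PTIP +/+. All 10 fibroblast markers checked lay above 48 on average, with summed signals of 156973 to 191733 in PTIP -/- and 201448 to 202665 in PTIP +/+. The median signal of an array was 97.8 and 82.5 in PTIP -/-, with 83.2 and 75.8 in PTIP +/+. The replicates stood apart for some markers and not for others. Fn1, Vim and Col1a1 were bright on all arrays, with 20897.1 to 33293.8 in PTIP -/- and 25065.2 to 39291.8 in PTIP +/+. Thy1, a surface marker of fibroblasts, read 14822.9 and 1500.7 in PTIP -/-, compared with 16080.1 and 239.2 in PTIP +/+, so that it differed between replicates more than between genotypes. Its ratio of 6.27 in replicate 2 ran against those of Postn (0.142) and Pdgfra (0.299), and 6 of the 10 markers were lower in both replicates. Markers of other cell types were low, with summed signals over 5 genes of 473.4 to 787.3 in PTIP -/- and 431.7 to 548.9 in PTIP +/+ for epithelium, and of 222.2 to 357.6 in PTIP -/- and 224.5 to 277.8 in PTIP +/+ for endothelium. For macrophages and blood the sums were 508.1 to 560.8 in PTIP -/- and 474.3 to 533.9 in PTIP +/+, and for neurons and glia 328.5 to 520.7 in PTIP -/- and 247.8 to 514.6 in PTIP +/+. Fat cell markers summed to 45.9 to 191.4 in PTIP -/- and 81.7 to 120.4 in PTIP +/+, and germ and stem cell markers to 121.5 to 561.9 in PTIP -/- and 131.5 to 447.2 in PTIP +/+. Single markers differed within these lists. Cdh1, Pecam1, Snap25, Adipoq and Pou5f1 were below 48 on all 4 arrays. Others could be read, such as Epcam at 436.1 and 291.5 in PTIP -/- against 356.0 and 220.4 in PTIP +/+. The macrophage marker Csf1r read 278.2 and 226.0 in PTIP -/- against 277.0 and 218.1 in PTIP +/+. Ddx4, a germ cell marker, reached 473.7 in PTIP -/- and 390.5 in PTIP +/+ in replicate 2. Skeletal muscle markers summed to 337.0 and 9036.7 in PTIP -/- against 338.8 and 1960.2 in PTIP +/+, nearly all of it in replicate 2 from the actin gene Acta1, while Myf5 was below 48 throughout. The part of any of these cells in the differences below was not tested, and in bulk RNA fewer cells of a type cannot be told apart from less RNA per cell.

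Across all genes, 90 of 18193 (0.495%) met the rule, and 61 (0.335%) were at least 2-fold higher in PTIP -/- in both replicates, which is 0.609% of those whose PTIP -/- signals reached 96. Taken singly, 1.54% of genes met the ratio in replicate 1 and 3.13% in replicate 2. A gene could meet the rule only if both PTIP +/+ signals reached 96. That held for 9720 genes, of which 0.926% met it. The 72 genes were 2.01-fold to 12.3-fold lower in replicate 1, with a median of 3.02-fold, and 2.06-fold to 32.7-fold lower in replicate 2, with a median of 3.47-fold. In 45 of them the ratio was farther down in replicate 2, and in 27 in replicate 1. Their median log2 difference was -1.77 after raising low signals, against 0 for all genes. The 2 PTIP -/- signals lay below both PTIP +/+ signals for 55 of the 72, where 11.6% of all genes measured and 14.3% of those able to meet the rule did so, and nothing is read from this count because the rule used the same signals. The genotypes overlapped for the other 17. Among these, Bmp4, Anxa8, Ezr, Npr3, Kirrel3, Coch, Cdo1 and Medag were the 8 whose log2 difference changed sign when 1 array was left out. The rest of the 17 were Grem1, Bmper, Rcan2, Pcsk6, Adam12, Spry1, Creb3l1, Mustn1 and Fam43a. In 15 genes at least 1 PTIP -/- signal lay below 48, so those folds are lower bounds, which enter ranges and medians at the bound and are written as "at least".

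**Figure D1:**
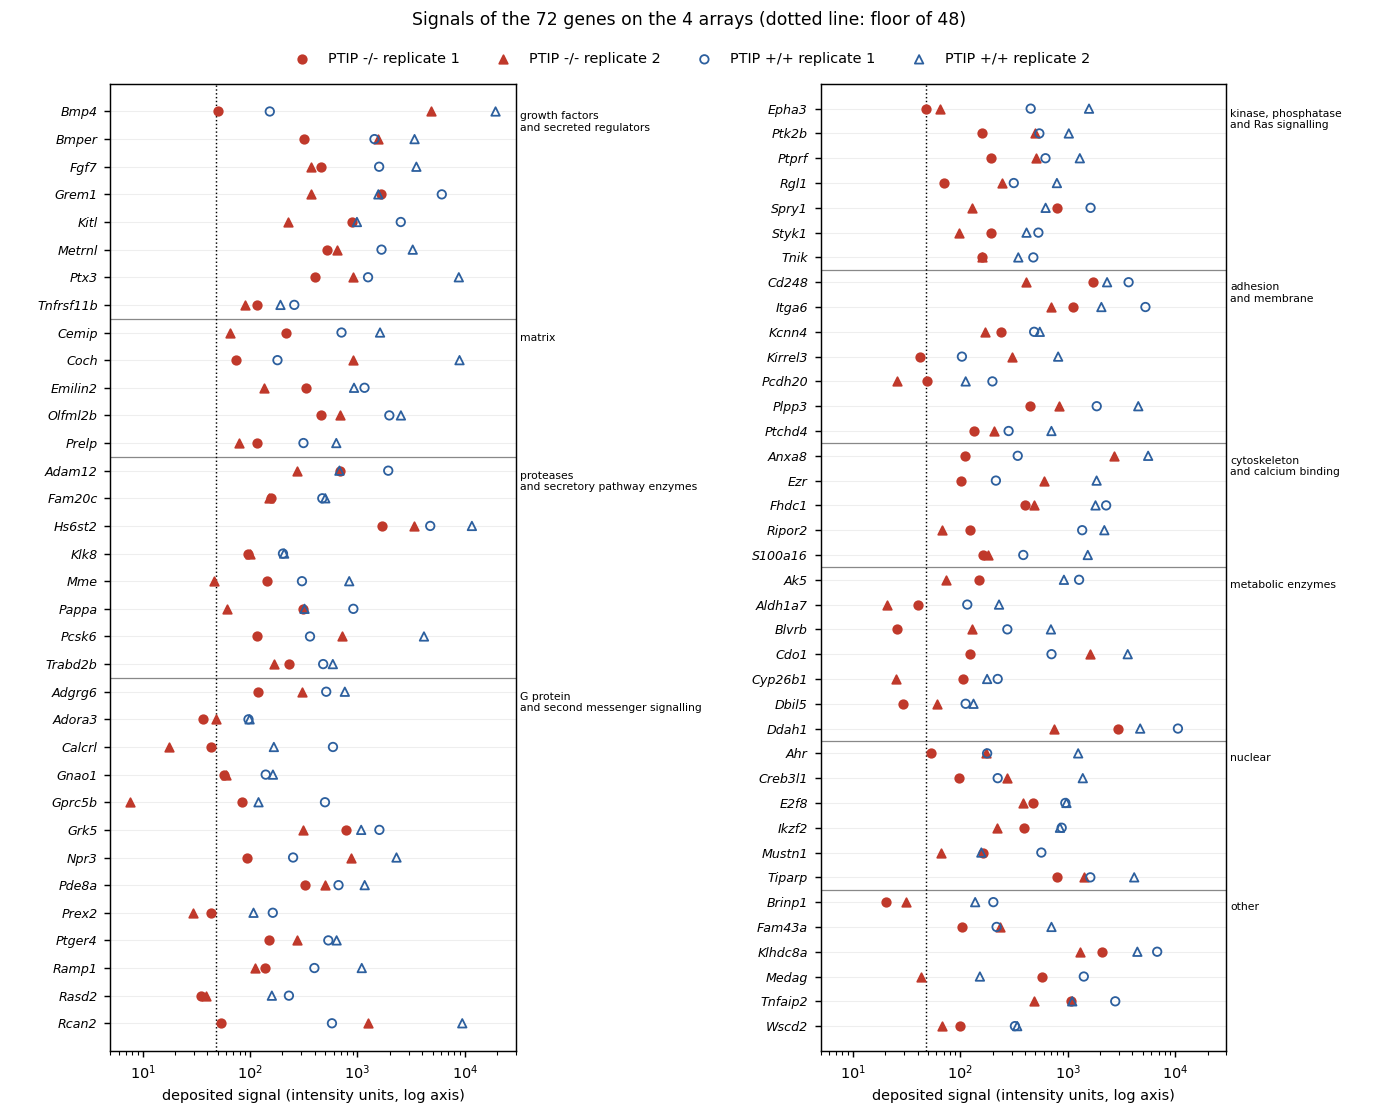
Deposited signal of each of the 72 genes (1 line each, by role) on the 4 arrays, on a log axis in intensity units; filled red marks are PTIP -/-, open blue marks PTIP +/+, circles replicate 1 and triangles replicate 2. Red lies left of blue of the same shape in every row, by the rule, and the replicates of 1 genotype lie far apart for genes such as Bmp4, with 50.4 and 4839.2 in PTIP -/-.

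The genes taken as markers of the group came from different pathways. Ripor2, a protein that takes part in cell polarity and migration, had signals of 123.6 and 67.1 in PTIP -/- cells, and of 1363.0 and 2191.1 in PTIP +/+ cells. Ak5, an adenylate kinase that balances ATP, ADP and AMP, gave 148.6 and 73.0 in PTIP -/-, with 1275.4 and 921.6 in PTIP +/+. Both genes were dim in both PTIP -/- samples and several-fold brighter in both PTIP +/+ samples. Fhdc1, a formin that acts on actin and microtubules, read 397.7 and 486.9 in PTIP -/-, compared with 2277.7 and 1813.3 in PTIP +/+. Wscd2, a protein with WSC domains, read 99.2 and 67.9 in PTIP -/- against 322.4 and 338.6 in PTIP +/+. The Golgi kinase Fam20c, which phosphorylates proteins on their way out of the cell, read 156.2 and 149.4 in PTIP -/-, compared with 470.8 and 502.0 in PTIP +/+. For all 5 markers the replicates of a genotype lay close together beside the gap between the genotypes, and their log2 differences ran from -4.25 ± 0.45 (SE, n = 2 arrays each) for Ripor2 to -1.67 ± 0.24 (SE) for Fam20c.

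**Figure D2:**
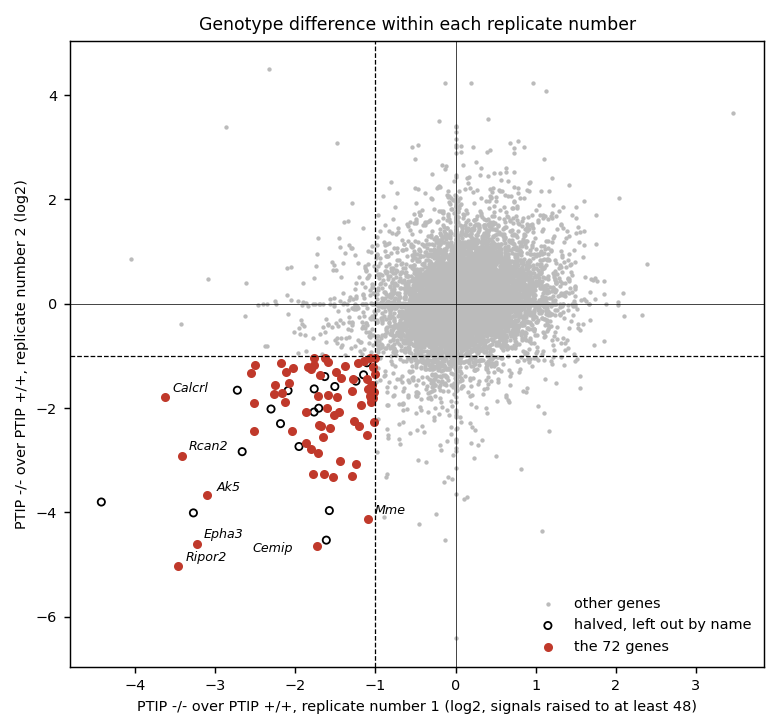
PTIP -/- over PTIP +/+ in replicate 1 (x axis) and replicate 2 (y axis) as log2 ratios for all genes, with signals raised to at least 48; red points are the 72 genes, open circles the 18 that met the rule and were left out by name, and dashed lines the 0.5 threshold. Ripor2, Epha3 and Ak5 lie far down on both axes, while Cemip and Mme are far down in replicate 2.

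Growth factors and their secreted regulators made up 8 of the genes, 2.21-fold to 4.52-fold lower in replicate 1 and 2.13-fold to 9.62-fold lower in replicate 2. Fgf7, a fibroblast factor for epithelial cells, read 462.8 and 370.2 in PTIP -/- against 1592.2 and 3536.5 in PTIP +/+. Metrnl, a secreted protein of muscle and fat, had signals of 523.6 and 645.3 without PTIP and 1675.0 and 3271.0 with it. In both genes the 2 PTIP -/- signals lay below both PTIP +/+ signals, from which nothing is read because the rule used these signals. Bmp4, a ligand of the BMP family, read 50.4 and 4839.2 in PTIP -/- against 152.8 and 19304.5 in PTIP +/+, so that it was dim in replicate 1 and bright in replicate 2. Grem1, which blocks BMP ligands, went the other way between the replicates, with 1671.6 and 371.3 in PTIP -/-, compared with 6097.9 and 1565.9 in PTIP +/+. Bmp1, a protease that shares the name, was higher in both replicates, at ratios of 1.30 and 2.26. Bmper, a BMP-binding protein, read 319.1 and 1539.1 in PTIP -/- against 1441.0 and 3401.2 in PTIP +/+. The genotypes overlapped for Bmp4, Grem1 and Bmper when the replicate was set aside. Ptx3, a pentraxin of innate defence and of hyaluronan-rich matrix, gave 401.4 and 913.1 in PTIP -/-, with 1255.4 and 8784.6 in PTIP +/+. Kitl, the ligand of the Kit receptor, was 2.86-fold and 4.38-fold lower in replicates 1 and 2, and Tnfrsf11b, the decoy receptor osteoprotegerin that ties up RANKL, 2.21-fold and 2.13-fold lower.

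The 5 matrix genes had a median fold of 8.10 in replicate 2 and 3.32 in replicate 1, with Olfml2b the exception at 3.71-fold lower in replicate 2 and 4.36-fold in replicate 1. Cemip, which takes part in the breakdown of hyaluronan, read 214.2 and 64.6 in PTIP -/-, compared with 710.7 and 1623.4 in PTIP +/+. Emilin2, a glycoprotein of elastic fibres, gave 333.9 and 134.4 in PTIP -/-, against 1163.7 and 929.3 in PTIP +/+. Olfml2b, a secreted protein with an olfactomedin domain, had 454.0 and 685.2 without PTIP and 1980.9 and 2538.9 with it. These 3 genes did not overlap between the genotypes. Prelp, a small leucine-rich proteoglycan, was 2.71-fold and 8.10-fold lower in replicates 1 and 2. Coch, cochlin of the inner ear matrix, read 73.3 and 904.1 in PTIP -/- against 180.1 and 8914.6 in PTIP +/+, with overlap.

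Proteases and enzymes of the secretory pathway gave 8 genes. Pcsk6, a convertase that activates growth factor precursors, read 115.1 and 711.8 in PTIP -/-, compared with 361.8 and 4162.0 in PTIP +/+. Pappa, a metalloprotease that frees insulin-like growth factors from a carrier, gave 308.6 and 61.6 in PTIP -/-, with 916.1 and 321.7 in PTIP +/+. Mme, the surface peptidase neprilysin, had 142.6 and 46.5 without PTIP and 304.5 and 838.5 with it, so that its fold was 2.14 in replicate 1 and at least 17.5 in replicate 2. Replicates were far apart in each of these 3 genes. Hs6st2, which adds sulphate to heparan sulphate, was the brightest of this role in PTIP +/+ cells, at 1703.1 and 3353.0 in PTIP -/- against 4759.7 and 11626.5 in PTIP +/+. Adam12, a metalloprotease of fusing and remodelling tissue, was 2.83-fold and 2.46-fold lower in replicates 1 and 2. The corresponding folds were 2.08 and 3.52 for Trabd2b, a protease that clips Wnt proteins, and 2.10 and 2.06 for Klk8, the serine protease neuropsin.

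Receptors of the G protein family and their second messenger proteins were the largest role, with 13 genes. They held both chains of the receptor for the peptide CGRP, the receptor-like chain Calcrl and the accessory chain Ramp1, which brings it to the surface. Calcrl read 43.4 and 17.8 in PTIP -/-, compared with 591.8 and 166.7 in PTIP +/+, at least 12.3-fold and at least 3.47-fold lower in replicates 1 and 2. Ramp1 had 137.0 and 110.4 without PTIP, and 397.4 and 1096.8 with it. The other accessory chains differed less: Ramp2 read 105.8 and 105.2 in PTIP -/- against 111.2 and 152.2 in PTIP +/+, and Ramp3 105.6 and 65.0 in PTIP -/-, compared with 85.0 and 67.7 in PTIP +/+. A second, dim Ramp1 probe set pointed the other way, with 114.9 and 79.1 in PTIP -/- against 76.9 and 65.5 in PTIP +/+. A second Calcrl probe set was 1.03-fold and at least 1.72-fold lower. Rcan2, which restrains the phosphatase calcineurin, read 54.2 and 1253.3 in PTIP -/-, compared with 579.1 and 9457.4 in PTIP +/+. Its relatives Rcan1 and Rcan3 were not lower: Rcan1 gave 1540.7 and 1972.1 in PTIP -/- against 1333.9 and 730.8 in PTIP +/+, and Rcan3 gave 506.0 and 597.0 in PTIP -/- against 366.2 and 327.2 in PTIP +/+. Rasd2, a small G protein also called Rhes, had 35.0 and 38.8 in PTIP -/-, both under the floor, and 230.2 and 159.7 in PTIP +/+.

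Adgrg6, an adhesion receptor of Schwann cells, was 4.34-fold and 2.48-fold lower in replicates 1 and 2. The prostaglandin E2 receptor gene Ptger4 was 3.59-fold and 2.32-fold lower, and the natriuretic peptide clearance receptor Npr3 2.69-fold and 2.68-fold, with overlap for Npr3. Gprc5b, an orphan receptor, read 84.7 and 7.6 in PTIP -/- against 498.7 and 120.0 in PTIP +/+. Prex2, which activates Rac, was at least 3.39-fold and at least 2.25-fold lower, and the adenosine receptor gene Adora3 at least 2.02-fold and 2.06-fold. Downstream of receptors, the G protein chain Gnao1 was 2.44-fold and 2.71-fold lower, the receptor kinase Grk5 2.04-fold and 3.49-fold, and Pde8a, which breaks down cyclic AMP, 2.05-fold and 2.33-fold.

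Kinase, phosphatase and Ras signalling gave 7 genes, led by Epha3, a receptor for ephrins that steers cells by contact. Epha3 read 47.9 and 65.1 in PTIP -/-, compared with 451.8 and 1578.4 in PTIP +/+, at least 9.41-fold and 24.2-fold lower in replicates 1 and 2, and 3 further probe sets were lower as well. Its relatives Epha2 and Epha4 were not near the threshold: Epha2 read 961.9 and 639.1 in PTIP -/- against 1027.0 and 940.8 in PTIP +/+, and Epha4 102.6 and 62.0 in PTIP -/-, compared with 115.0 and 51.6 in PTIP +/+. Rgl1, which activates Ral GTPases, had 70.0 and 242.4 without PTIP and 314.6 and 792.8 with it. Spry1, a feedback inhibitor of growth factor receptors, was just inside the threshold in replicate 1 at 2.03-fold and 4.81-fold lower in replicate 2, while Spry2 and Spry4 had ratios of 0.815 and 0.831 in replicate 1 and 0.888 and 0.862 in replicate 2. The kinase-like receptor Styk1 was 2.74-fold and 4.22-fold lower in replicates 1 and 2, the receptor phosphatase Ptprf 3.23-fold and 2.57-fold, the focal adhesion kinase relative Ptk2b 3.40-fold and 2.07-fold, and Tnik, a kinase of Wnt signalling, 3.01-fold and 2.17-fold.

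Of 7 adhesion and membrane genes, Plpp3, a surface phosphatase that clears lysophosphatidic acid, had the largest weaker fold of the 2 replicates. It read 450.0 and 834.1 in PTIP -/- against 1861.2 and 4535.1 in PTIP +/+, and its second probe set was 4.04-fold and 5.48-fold lower. Itga6, a laminin-binding integrin chain, gave 1109.1 and 696.5 in PTIP -/-, with 5286.1 and 2056.8 in PTIP +/+. Neither gene overlapped between the genotypes. Cd248, the endosialin of stromal and perivascular cells, had 1706.0 and 408.5 without PTIP and 3685.9 and 2324.1 with it. Pcdh20, a protocadherin, was 4.07-fold and at least 2.34-fold lower in replicates 1 and 2, Kcnn4, a calcium-activated potassium channel, 2.03-fold and 3.23-fold, Ptchd4, a patched-domain protein, 2.09-fold and 3.39-fold, and Kirrel3, an adhesion molecule of the immunoglobulin family, at least 2.16-fold and 2.71-fold, with overlap between the genotypes.

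Beside Ripor2 and Fhdc1, the cytoskeletal and calcium-binding genes were Ezr, Anxa8 and S100a16. S100a16, an EF-hand protein, read 163.6 and 181.9 in PTIP -/- against 385.7 and 1536.5 in PTIP +/+. Ezr, which ties the membrane to actin, was 2.13-fold and 3.10-fold lower in replicates 1 and 2, and the annexin Anxa8 3.10-fold and 2.06-fold, both with overlap between the genotypes. Ripor1, the closest namesake of Ripor2, read 1056.2 and 1080.1 in PTIP -/-, compared with 806.5 and 746.0 in PTIP +/+, a difference to the other side.

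The 7 metabolic enzymes touched several routes. Blvrb, which reduces biliverdin and flavins, read 25.5 and 127.8 in PTIP -/- against 274.0 and 697.4 in PTIP +/+. Ddah1, which degrades the nitric oxide synthase inhibitor dimethylarginine, gave 2910.9 and 746.9 in PTIP -/-, with 10607.7 and 4724.8 in PTIP +/+, and 3 of its 4 further probe sets met the rule too. Ddah2, its relative, was not lower, at 1482.2 and 1870.9 in PTIP -/-, compared with 1300.7 and 1608.2 in PTIP +/+. Cdo1, which starts the oxidation of cysteine, had 124.2 and 1607.2 without PTIP and 706.2 and 3617.0 with it. Cyp26b1, which clears retinoic acid, was 2.08-fold and at least 3.70-fold lower in replicates 1 and 2, and Aldh1a7, an aldehyde dehydrogenase, at least 2.42-fold and at least 4.78-fold. Dbil5, an acyl-CoA-binding protein first known from testis, was at least 2.34-fold and 2.21-fold lower. Among 9 adenylate and nucleotide kinases above the floor, Ak5 was the 1 that met the rule, and 3 others were lower in both replicates. These were Dtymk at ratios of 0.613 and 0.656, Nme2 at 0.928 and 0.776, and Guk1 at 0.996 and 0.861. Higher in both were Ak1 and Ak3, with ratios of 1.13 and 1.13 in replicate 1 and 1.30 and 1.21 in replicate 2. The list's median log2 ratio was -0.14.

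Of 8 secretory pathway kinases above the floor, Fam20c alone met the rule, and 4 were higher in both replicates. Fam20b, which phosphorylates xylose in proteoglycan linkers, read 964.3 and 1210.5 in PTIP -/- against 838.6 and 1096.5 in PTIP +/+. Fam20a, the partner that activates Fam20c, averaged under 48 and was uneven, at 4.8 and 6.5 in PTIP -/-, compared with 518.0 and 63.1 in PTIP +/+. Of 8 measured substrates of mineralised matrix and related genes, 2 lay above the floor on average and none met the rule. Sparc, the bright one, gave 29537.9 and 29268.0 in PTIP -/- against 32654.1 and 40325.4 in PTIP +/+.

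The 6 nuclear genes held a transcription factor and a known target of it. Ahr, the receptor for dioxin and related compounds, read 53.8 and 172.5 in PTIP -/-, compared with 177.7 and 1250.4 in PTIP +/+. Tiparp, an ADP-ribosyltransferase that Ahr induces and that feeds back on it, gave 787.1 and 1418.2 in PTIP -/-, with 1622.6 and 4156.0 in PTIP +/+. Both were lower by more in replicate 2, at 7.25-fold for Ahr and 2.93-fold for Tiparp, and a dim second Ahr probe set had ratios of 1.76 in replicate 1 and 0.415 in replicate 2. The further Tiparp probe sets were outside the threshold in replicate 1, at ratios of 0.610 and 0.668, and inside it in replicate 2, at 0.283 and 0.230. Creb3l1, a membrane-bound factor for collagen genes in bone, was 2.30-fold and 5.06-fold lower in replicates 1 and 2, Ikzf2, the zinc finger factor Helios, 2.26-fold and 3.82-fold, and Mustn1, a nuclear protein of muscle and bone, 3.48-fold and 2.38-fold. E2f8, a repressor in the cell cycle, was the gene nearest the threshold, at 472.5 and 380.9 in PTIP -/- against 949.9 and 972.8 in PTIP +/+. Its relatives E2f1 to E2f7 were all outside it, E2f7 at ratios of 0.878 and 0.577.

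The last 6 genes fit no common role. Klhdc8a, a kelch-domain protein, was bright, at 2073.7 and 1310.9 in PTIP -/-, compared with 6801.0 and 4447.4 in PTIP +/+. Brinp1, a neural protein induced by BMP and retinoic acid, was at least 4.23-fold and at least 2.86-fold lower in replicates 1 and 2, Tnfaip2, induced by tumour necrosis factor, 2.59-fold and 2.28-fold, and Fam43a 2.08-fold and 2.98-fold. Medag, known from fat cell formation, read 575.2 and 42.9 in PTIP -/- against 1411.1 and 152.2 in PTIP +/+.

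The values around the 0.5 threshold ran on without a break. Just inside it lay, by the weaker of the 2 ratios, Grk5 (0.491), Spry1 (0.492), Kcnn4 (0.493), Adora3 (0.496) and E2f8 (0.497). Just outside lay the glutamine transporter Slc1a5 (0.503), the transcription factor Bach2 (0.504), the Cdc42 effector Cdc42ep2 (0.507), the homeobox gene Dlx1 (0.509) and the phosphatase Dusp5 (0.512).

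Genes with a symbol of the same stem as a member, such as Ak1 for Ak5, were set beside all genes. The stem is a match of names and does not by itself show common descent. Above the floor on average there were 134 such genes for 36 of the members. Of them 1 (0.746%) met the rule, the integrin chain Itga8, which had been left out by name, against 0.721% of all 12487 genes above the floor. Lower in both replicates were 26 (19.4%), against 25.4% of all, and higher in both 48 (35.8%), against 33.2%. These shares were near those of all genes, and nothing particular to the namesakes is read from them. Some namesakes met the ratio in 1 replicate only. Examples in replicates 1 and 2 were Itga4 (0.264 and 0.762), Plpp1 (0.456 and 0.726), Fgf10 (0.890 and 0.254) and Ak4 (0.458 and 1.25). No pair of the 72 genes shared a stem.

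Further probe sets of the same genes come from the same arrays and the same contrast, so they describe the measurement and add no independent support. Above the floor on average there were 54, for 42 of the 72 genes. Of these, 19 (35.2%) met the rule in their own right, belonging to 15 genes, against 62 of 10518 further probe sets of all genes (0.589%). Lower in both replicates were 47 (87.0%), against 18.7% of those of all genes. Ripor2 had 3 further probe sets, of which the brightest read 50.7 and 57.9 in PTIP -/-, compared with 484.8 and 563.1 in PTIP +/+. The other probe sets of Ripor2 were 2.48-fold and 3.74-fold lower, and 1.20-fold and at least 4.13-fold lower, in replicates 1 and 2. The second probe set of Ak5 gave 77.0 and 109.5 in PTIP -/- against 659.7 and 449.0 in PTIP +/+. That of Cemip was 2.34-fold and 1.89-fold lower, well short of the brightest. That of Fam20c was dimmer and outside the threshold, at 2.45-fold and 1.49-fold lower in replicates 1 and 2. With the probe sets of a gene averaged, the log2 difference was -1.06 for Cemip in place of -3.19, -2.59 for Ripor2 in place of -4.25, -0.82 for Ramp1 in place of -2.42, -0.73 for Metrnl in place of -2.01, -0.62 for Fam20c in place of -1.67 and -1.26 for Ahr in place of -2.29. That average also takes in probe sets below the floor, of which the members had 24, so it mixes readable and dim signals.

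**Figure D3:**
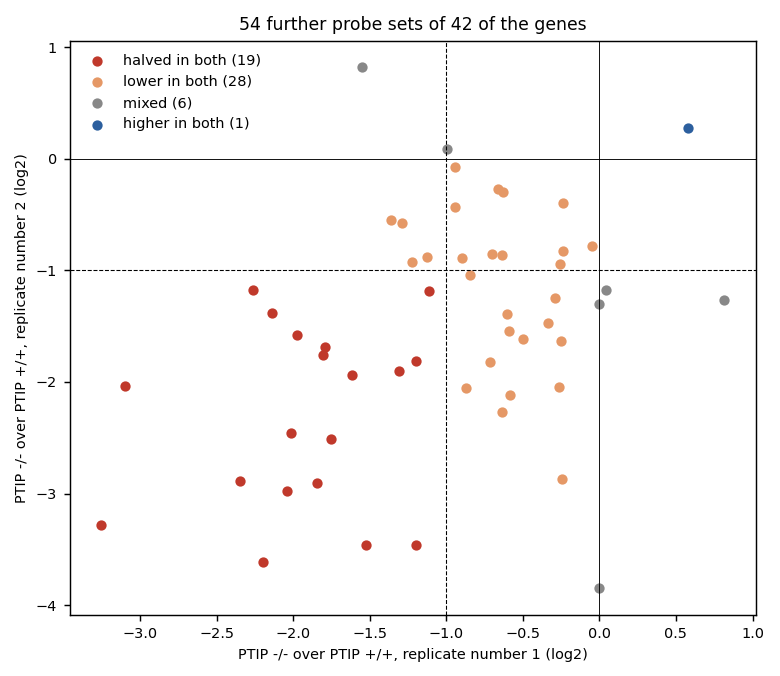
Log2 ratio of PTIP -/- over PTIP +/+ in replicate 1 (x axis) and replicate 2 (y axis) for the 54 further probe sets of 42 of the genes; colours give the class, solid lines no difference and dashed lines the 0.5 threshold. Of the points, 19 lie at or under the threshold on both axes, 28 more are lower on both, 6 are mixed and 1, a probe set of Ramp1, is higher on both.

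The difference between replicates 2 and 1 was not used to choose the genes, and it was tested over all genes with genotype as a term. Since the labels do not name separate cultures, its p-values measure only the spread between these RNA samples. By limma, 6 of the 72 genes (8.33%) differed at an adjusted p under 0.05, against 80 of 12487 genes (0.641%) and 22 of the 9720 able to meet the rule (0.226%). Bmp4 was higher in replicate 2 in both genotypes, by 6.78 ± 0.22 on the log2 scale (SE, limma adjusted p = 0.0389). The 5 genes higher in replicate 2 stand against 0.497% of all genes higher, and the 1 lower against 0.144% lower. The others higher in replicate 2 were Anxa8 by 4.33 ± 0.25 (limma adjusted p = 0.0408), Rcan2 by 4.28 ± 0.24 (0.0407), Npr3 by 3.20 ± 0.20 (0.0413) and Kirrel3 by 2.90 ± 0.20 (0.0475). Medag was lower in replicate 2, with a difference of -3.48 ± 0.24 (limma adjusted p = 0.0475). Each of these 6 differences had the same sign in both genotypes. The members' calls were lost when the genotype term was dropped (0 members) and when signals below 48 were raised to 48. They were also lost when 1 array was left out and the genotype term with it. Such a fit has 1 array for 1 of the replicate numbers, and without PTIP -/- replicate 2 it still called other genes. In the fit over all 4 arrays, the residual is the gap between the genotype ratios of the replicates. The rule does not limit that gap, but it keeps the log2 ratios of a member from having opposite signs. The p-values of members and other genes are therefore not fully alike.

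By size alone, 37 of the 72 genes (51.4%) differed at least 2-fold between the replicates, 23 higher and 14 lower in replicate 2, against 13.3% of the genes tested and 8.95% of those able to meet the rule. The median size of the difference was 1.05 on the log2 scale for the 72 genes and 0.37 for all. The 5 markers of the group lay below that median size, with replicate differences of -0.75 ± 0.24 (SE) for Ak5, -0.24 ± 0.25 (SE) for Wscd2, -0.10 ± 0.46 (SE) for Ripor2, -0.02 ± 0.26 (SE) for Fhdc1 and 0.01 ± 0.20 (SE) for Fam20c. These values average the genotypes, which went opposite ways for all but Ak5. Ripor2 went from 123.6 to 67.1 in PTIP -/- and from 1363.0 to 2191.1 in PTIP +/+. In the contrast that chose the genes, limma called 0 of 12487 genes (0.0%) at an adjusted p under 0.05, and 285 at an unadjusted p under 0.05. Lower at that unadjusted p were 118 of the 12487 (0.945%), among them 39 of the 72 genes, from which nothing is read.

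**Figure D4:**
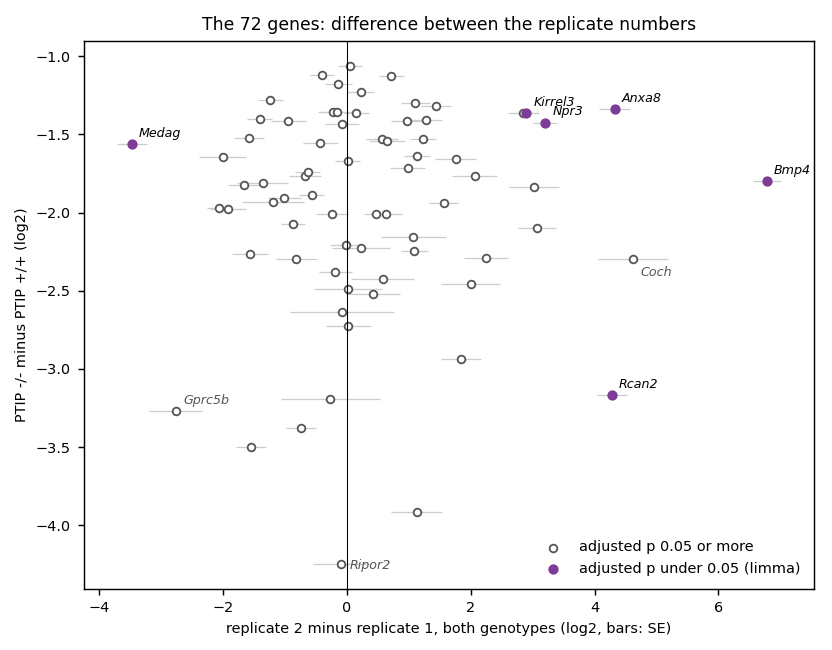
For each of the 72 genes, the log2 difference of replicate 2 minus replicate 1 with genotype as a term (x axis, bars SE) and of PTIP -/- minus PTIP +/+ (y axis, all below 0 by the rule); purple points passed limma's adjusted p of 0.05 in the replicate comparison. Bmp4 lies at 6.78 and Medag at -3.48, while Ripor2 is near 0 because opposite changes in the genotypes average out.

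By chromosome, 10 of the 72 genes (13.9%) lay on chromosome 3, which holds 4.86% of the genes able to meet the rule, and 9 (12.5%) on chromosome 7, which holds 7.13%. These shares carry no test. Mme, Tiparp and Ptx3 follow each other as members on chromosome 3, with 14 protein-coding genes of the RefSeq table between Mme and Tiparp, 7 of them measured, and 3 between Tiparp and Ptx3. The measured genes between them did not meet the rule. Plch1, a phospholipase C next to Mme, differed to the other side, at 197.4 and 108.7 in PTIP -/- against 67.7 and 45.1 in PTIP +/+. The bright neighbours Ssr3 and Ccnl1 had ratios of 0.974 and 0.974 in replicate 1, and 0.919 and 0.852 in replicate 2. Pappa and Brinp1 on chromosome 4 were the other pair with as few as 3 protein-coding genes between them.

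**Figure D5:**
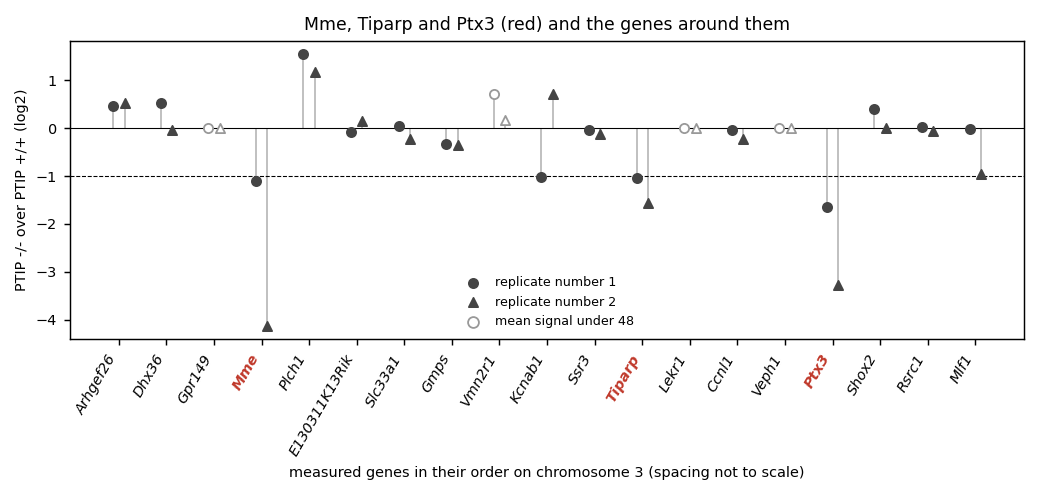
Log2 ratio of PTIP -/- over PTIP +/+ for measured genes in their order on chromosome 3, not to scale, from 3 genes before Mme to 3 after Ptx3; circles are replicate 1, triangles replicate 2 and open marks genes with a mean signal under 48. Mme, Tiparp and Ptx3 lie at or below the dashed 0.5 threshold in both replicates, and Plch1 lies above 0 in both.

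Promoter windows of 250 bases before to 50 after the start (RefSeq, GRCm38.p6) were found for 55 of the 72 genes, and for genes with several starts the first listed window was used. A ratio of observed to expected CpG of at least 0.6 was reached by 34 of the 55 (61.8%), against 78.6% of 7976 windows of genes able to meet the rule and 36.5% of all 27025. The median ratio was 0.72 for the 55, 0.80 for the genes able to meet the rule and 0.39 for all. On either strand, the GC box GGGCGG was in 56.4% of the windows of the 72 genes (against 68.2% of the genes able to meet the rule and 35.9% of all), CCAAT in 30.9% (39.1% and 37.9%), TATAAA in 10.9% (6.63% and 14.2%) and the AP-1 site TGACTCA in 3.64% (3.10% and 5.17%). The cyclic AMP element TGACGTCA was in 0 of 55 windows (3.46% and 1.88%). GCGTG, the core that Ahr binds with its partner, was in 43.6% (54.2% and 32.5%), and it was added to the search because Ahr and Tiparp are among the genes. Matches to different motifs can share letters at their ends. A match of letters is not a binding site. The windows of both CGRP receptor chains and of the neighbours Tiparp and Ptx3 are shown as examples. Like all 72 genes, they were lower by the rule. Their windows differ in CpG content, with ratios of 0.36 for Calcrl, 0.26 for Ramp1, 0.87 for Tiparp and 0.43 for Ptx3. Capitals mark matches to the motifs, of which Calcrl has 1 GC box and 1 GCGTG, Tiparp 1 GCGTG on the other strand (CACGC), and Ramp1 and Ptx3 none. The windows lie at chr2:84425217-84425516, minus strand, chr1:91179572-91179871, plus strand, chr3:65528197-65528496, plus strand and chr3:66219637-66219936, plus strand, and are written along the strand of the gene.
Calcrl: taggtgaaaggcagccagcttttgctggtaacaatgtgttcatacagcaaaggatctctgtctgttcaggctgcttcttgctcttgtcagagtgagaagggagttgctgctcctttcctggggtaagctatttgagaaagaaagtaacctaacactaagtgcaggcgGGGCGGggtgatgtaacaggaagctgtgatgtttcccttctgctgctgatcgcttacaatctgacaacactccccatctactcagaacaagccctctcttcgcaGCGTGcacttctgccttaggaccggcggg
Ramp1: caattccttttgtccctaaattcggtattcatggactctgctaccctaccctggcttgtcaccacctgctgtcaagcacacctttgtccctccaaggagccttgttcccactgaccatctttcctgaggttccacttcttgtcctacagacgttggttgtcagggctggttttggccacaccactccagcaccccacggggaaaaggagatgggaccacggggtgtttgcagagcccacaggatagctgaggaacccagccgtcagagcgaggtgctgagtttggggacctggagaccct
Tiparp: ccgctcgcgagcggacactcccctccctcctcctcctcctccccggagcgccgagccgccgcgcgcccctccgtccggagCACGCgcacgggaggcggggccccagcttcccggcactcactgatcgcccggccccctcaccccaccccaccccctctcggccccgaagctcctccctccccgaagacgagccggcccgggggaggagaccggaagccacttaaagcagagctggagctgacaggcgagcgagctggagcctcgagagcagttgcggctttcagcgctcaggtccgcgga
Ptx3: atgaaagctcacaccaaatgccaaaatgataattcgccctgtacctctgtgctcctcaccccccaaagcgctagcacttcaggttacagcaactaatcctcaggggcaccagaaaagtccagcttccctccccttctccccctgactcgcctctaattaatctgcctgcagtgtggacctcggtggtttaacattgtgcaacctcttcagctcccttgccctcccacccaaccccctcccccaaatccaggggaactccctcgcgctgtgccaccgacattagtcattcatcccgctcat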

How the data were processed

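Total RNA of 2 PTIP -/- and 2 PTIP +/+ samples was measured on 4 arrays of 45101 probe sets. The authors deposited 1 linear intensity per probe set and array. Per the submitters' processing notes they come from RMA, with no version given, but the intensities are linear and have different quantiles on each array, and their mean without the top and bottom 2% was 500.0 on all 4, as scaling to a common trimmed mean gives. No source used here gives further steps. The number of arrays limits the precision.

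The 64 control probe sets were left out, and of the rest 34945 had 1 symbol, 932 several and 9160 none. Symbols of 34754 were updated through the gene number in the RefSeq table of GRCm38.p6. The single intensity of 0 was set to 0.1 before log2. Log2 differences with SE come from limma 3.58.1 (R 4.3.3, lmFit and eBayes) on 12487 genes with a mean signal of at least 48, with no covariate for genotype and with genotype as a term for replicate 2 against 1, with Benjamini-Hochberg adjustment over all genes. The fits were also run on simulated data, with a known replicate difference in some genes and no genotype difference. Nothing is read from that run about the genes here. Folds within a replicate set 1 array against 1 and carry no test.

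The members, roles and lists were chosen with earlier results of these data known. Named genes were the members (with signals for the 25 whose weaker fold was largest, and further examples by role), the 5 on either side of the threshold and genes of the same symbol stem, where a letter after the number was dropped first and otherwise the number. The rule and the folds within a replicate set arrays numbered alike against each other. In the main limma comparison of the genotypes they were not taken as pairs, since no label gives a shared origin. The protein features planned were not run, since no protein table was used here. The result of 1 gene list is not reported here.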

Additional observations from a re-analysis of the deposited data

How the results depend on the processing

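The number of genes meeting the rule was 72, and it was 83 with quantile normalization, 101 with arrays centred on their median, 55 with a floor of 96 and 52 with probe sets averaged per gene. It moved to 109 with a floor of 24 and to 274 with no floor, where dim signals add genes. With 1 array left out, the ratio of group means replaces the 2 ratios by construction, and 349 to 603 genes met it. All 72 genes met the rule again with centred arrays, 71 with quantile normalization, and 45 with probe sets averaged per gene, dim ones included. Their median log2 difference of -1.77 moved to -1.51 with probe sets averaged per gene and ran from -1.99 to -1.59 with 1 array left out.

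The 6 members called between replicates became 10 with quantile normalization (198 of all genes, against 80) and 9 with centred arrays (215). A variance trend with robust moderation gave 27 (893 of all genes). With no filter on low signals and with signals raised to 48 the count was 0, for all genes too. It was 0 members with no genotype term. The members' calls were also lost with 1 array left out, where 1 array stands for 1 of the replicate numbers. Without PTIP -/- replicate 2, other genes were still called. The cause of these changes was not tested. For genotype, 0 genes were called with limma under all 11 alternatives, including the replicate block (980 at an unadjusted p under 0.05). The replicate block leaves the median at -1.77, since in this balanced layout it cannot change the genotype difference. Log2 deviations of same-numbered arrays correlated at 0.69 across genes, with 2 pairs and no label that ties the numbers. For single members, 0 of 353 values under the other settings reversed. Nothing is read from this, since these settings use the contrast that chose the genes. The replicate block and the raising of signals to 48 could not reverse any sign. With 1 array left out the replicate numbers are unequal between genotypes, and 8 members crossed 0: Anxa8 (log2 -3.65 to 0.98), Bmp4 (-5.29 to 1.69), Cdo1 (-3.69 to 0.0081), Coch (-5.11 to 0.52), Ezr (-2.92 to 0.20), Kirrel3 (-2.85 to 0.12), Medag (-3.43 to 0.31) and Npr3 (-3.03 to 0.18). Signals near 48 limit the folds of the 15 members given as bounds.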
